A study of Mus musculus with 2 samples.

Results

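The cells described here are tumour macrophages with high RNA of 5 genes of mitosis. They were chosen by a rule on the measured counts. A cell barcode had to carry 500 or more detected genes and at most 10% mitochondrial counts. The complement genes C1qa, C1qb and C1qc, which mark tissue macrophages, had to give at least 1% of its unique molecular identifiers (UMIs, 1 per captured RNA molecule), and the T cell genes Cd3d, Cd3e and Cd3g had to be at 0. Mki67, Top2a, Birc5, Ccnb2 and Cenpe together had to reach 5 UMIs. The rule found 1000 cells among 7005 barcodes and among 5641 C1q macrophages, 413 in the non-responder library and 587 in the responder library. They are called 5-gene macrophages below, and were compared within each library with the C1q macrophages that had 0 UMIs of these genes (1081 and 2324 cells, the 0-UMI macrophages). The remaining 485 and 751 C1q macrophages, with 1 to 4 UMIs, belonged to neither set.

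The study sequenced RNA of single CD45+ cells, which are leukocytes, sorted by flow cytometry from subcutaneous MC38 tumours of C57BL/6 mice. MC38-GFP cells derive from a colon adenocarcinoma of the mouse and make a fluorescent protein, and 50000 of them were injected per animal. Every mouse of both groups had received an antibody against PD-1, an inhibitory receptor of T cells, at a dose called sub-optimal (100 ug on days 12, 15, 18 and 22), so no untreated group is among the samples. The responder and the non-responder group, named for the response of the tumour, have 1 library each, and the age of the animals, the number pooled and the rule that set the response are not given in the sources used here. A difference between the libraries is therefore not one between response groups, and no test over samples was possible. Intervals in brackets are exact 95% intervals that cover counting error only.

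A dividing cell copies its DNA in S phase, checks it in G2 and separates the chromosomes in M phase. Cyclins A and B with the kinase CDK1 drive entry into mitosis, Aurora and Polo-like kinases build the spindle, kinetochores tie chromosomes to it, and the anaphase-promoting complex then has the cyclins and securin destroyed. Tumour macrophages come largely from blood monocytes, and macrophages in tissue can also divide in place, with the receptor Csf1r as the main route of growth signals.

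There were 2580 barcodes with 32032569 UMIs in all in the non-responder library, and 4425 with 45866561 in the responder library. The 5-gene macrophages were deeper than their comparison cells, with a median of 16572 against 11196 UMIs in the non-responder library and 13910 against 9561.5 in the responder library. Their median mitochondrial share was 2.37% in both libraries, against 2.18% and 2.04%. C1q genes gave a median of 2.16% and 2.52% of their UMIs against 2.26% and 2.68%. Both sets had to pass the same C1q limit, so these values describe the selection. The 2 libraries shared 14 barcodes, and 1 of the 5-gene macrophages had such a barcode. No doublet caller was applied, and the Cd3 limit removed droplets with T cell RNA only. Markers of tumour epithelium summed to 4.15 CPM (counts of a gene per 1000000 UMIs) and 8.43 CPM in the 5-gene macrophages against 4.31 and 6.08 CPM in the 0-UMI macrophages. Of 12 genes, 8 and 7 were at 0 in the 5-gene macrophages, Epcam, Krt8 and Krt18 among them. In each library 1 gene of the list had enough counts for a ratio. Its log2 ratio of CPM, 5-gene over 0-UMI macrophages, was 0.08 in the non-responder and 0.54 in the responder library. A UMI of the list was in 5.57% and 10.2% of the 5-gene macrophages, which were deeper, against 4.35% and 5.68% of the 0-UMI macrophages. Whether tumour cell RNA contributed to the 5-gene macrophages was not tested. T cell markers summed to 4.01 and 7.94 against 6.17 and 8.29 CPM, with Cd3d, Cd3e and Cd3g of that list at 0 in both sets by the rule. Fibroblast markers summed to 4.58 and 3.30 against 5.28 and 5.23 CPM. Dendritic cell markers stood at 27.9 and 71.6 against 23.1 and 53.2 CPM. Their part in the results was not tested.

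The promoters of the chosen genes are shown first because genes of mitosis and genes of S phase carry different short motifs there. The CCAAT box is bound by the factor NF-Y, the CHR element by the MuvB complex that switches mitotic genes on in G2, and E2F sites by the E2F factors of S phase. Windows ran from 250 bases before to 50 after a gene's start (RefSeq, GRCm38.p6, the build named in the submitters' processing notes), and letters were searched on both strands: CCAAT, CHR as TTTGAA or TTCGAA, and E2F as TTTCCCGC, TTTCGCGC, TTTGCCGC or TTTGGCGC. Matches may overlap, and a match is a description of the letters only. Capitals below mark the matches. Ccnb2 (chr9:70421505-70421804, minus strand), Top2a (chr11:99024140-99024439, minus) and Mki67 (chr7:135716330-135716629, minus) are genes of the rule, Cdc20 (chr4:118437294-118437593, minus), Hmmr (chr11:40733388-40733687, minus), Plk1 (chr7:122159185-122159484, plus) and Ccnb1 (chr13:100786437-100786736, minus) are among the genes with the highest ratios, and Mcm5 (chr8:75109259-75109558, plus) is a gene of S phase shown for contrast.
Ccnb2: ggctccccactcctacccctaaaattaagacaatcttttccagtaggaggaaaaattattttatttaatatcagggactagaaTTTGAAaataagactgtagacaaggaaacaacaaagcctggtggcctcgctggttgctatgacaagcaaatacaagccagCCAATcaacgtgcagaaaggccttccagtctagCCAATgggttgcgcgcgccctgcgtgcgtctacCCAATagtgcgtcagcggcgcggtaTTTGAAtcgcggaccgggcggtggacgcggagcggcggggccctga
Top2a: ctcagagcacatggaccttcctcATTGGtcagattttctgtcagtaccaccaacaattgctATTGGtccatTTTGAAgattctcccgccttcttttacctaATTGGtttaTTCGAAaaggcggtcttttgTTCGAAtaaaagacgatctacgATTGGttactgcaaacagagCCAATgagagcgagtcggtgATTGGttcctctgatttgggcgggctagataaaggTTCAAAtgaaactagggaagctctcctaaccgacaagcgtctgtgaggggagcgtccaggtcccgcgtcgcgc
Mki67: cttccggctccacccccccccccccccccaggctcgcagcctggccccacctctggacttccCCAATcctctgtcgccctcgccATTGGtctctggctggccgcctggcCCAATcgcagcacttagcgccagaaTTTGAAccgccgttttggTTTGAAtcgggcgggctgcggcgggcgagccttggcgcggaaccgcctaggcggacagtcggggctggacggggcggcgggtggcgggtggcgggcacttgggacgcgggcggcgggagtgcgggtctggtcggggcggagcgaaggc
Cdc20: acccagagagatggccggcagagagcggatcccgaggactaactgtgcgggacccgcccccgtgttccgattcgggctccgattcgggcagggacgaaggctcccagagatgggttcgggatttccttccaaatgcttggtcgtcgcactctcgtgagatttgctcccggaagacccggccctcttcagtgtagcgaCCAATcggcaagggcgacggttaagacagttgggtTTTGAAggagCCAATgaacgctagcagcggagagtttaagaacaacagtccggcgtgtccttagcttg
Hmmr: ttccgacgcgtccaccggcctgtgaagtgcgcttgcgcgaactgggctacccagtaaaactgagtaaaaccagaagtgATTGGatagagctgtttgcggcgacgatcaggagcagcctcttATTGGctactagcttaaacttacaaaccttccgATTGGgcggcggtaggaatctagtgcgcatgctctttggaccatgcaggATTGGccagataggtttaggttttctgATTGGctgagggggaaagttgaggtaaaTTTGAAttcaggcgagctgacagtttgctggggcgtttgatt
Plk1: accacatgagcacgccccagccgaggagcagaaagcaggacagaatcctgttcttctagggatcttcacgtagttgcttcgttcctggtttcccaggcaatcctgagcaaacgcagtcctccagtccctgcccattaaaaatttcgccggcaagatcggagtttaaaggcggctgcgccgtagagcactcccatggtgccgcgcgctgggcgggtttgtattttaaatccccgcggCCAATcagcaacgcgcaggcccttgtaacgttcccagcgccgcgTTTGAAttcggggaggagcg
Ccnb1: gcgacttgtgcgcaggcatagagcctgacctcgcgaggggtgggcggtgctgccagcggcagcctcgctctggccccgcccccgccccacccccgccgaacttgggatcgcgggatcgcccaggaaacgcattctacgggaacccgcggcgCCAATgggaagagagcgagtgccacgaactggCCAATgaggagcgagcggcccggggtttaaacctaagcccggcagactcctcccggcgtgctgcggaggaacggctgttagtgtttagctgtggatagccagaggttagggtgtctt
Mcm5: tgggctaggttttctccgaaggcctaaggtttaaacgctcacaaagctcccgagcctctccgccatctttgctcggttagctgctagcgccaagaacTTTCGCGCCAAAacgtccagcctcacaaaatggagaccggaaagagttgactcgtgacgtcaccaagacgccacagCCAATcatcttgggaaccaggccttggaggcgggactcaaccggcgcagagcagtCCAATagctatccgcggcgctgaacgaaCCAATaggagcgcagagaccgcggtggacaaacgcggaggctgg

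The Ccnb2 window held 3 CCAAT boxes before the start, at -87, -54 and -21 bases, and CHR matches at -167 and 4. Top2a had 6 CCAAT boxes and 4 CHR matches, and Cdc20 a CHR at -18 between CCAAT boxes at -53 and -8. The windows of Birc5 and Cenpe held no CHR letters, and that of Birc5 no CCAAT either. The Mcm5 window held no CHR match, and its 2 overlapping E2F matches lay at -153 and -149. Over the 63 of 80 genes of the cyclin, kinase, kinetochore, spindle and anaphase lists that matched the table (69 windows), 69.6% of the windows held a CHR and 72.5% a CCAAT box. Of all 32851 windows in the table, 19.2% held a CHR and 37.4% a CCAAT box. CHR and CCAAT stood together in 55.1% of the windows of the mitosis lists and in 7.52% of all windows. For the S phase list, with 32 of 41 genes matched (39 windows), the CHR share was 15.4%, and E2F letters were in 33.3%, against 7.25% of the mitosis windows and 2.26% of all. CCAAT was also common elsewhere. It was in 56.4% of the S phase windows and in 75% of the 8 windows of MHC class II genes, and 2 or more stood in 43.5% of the mitosis and 38.5% of the S phase windows. The printed windows were chosen to show the motifs, except that of Ccnb1, which holds CCAAT boxes and no CHR letters. Among other genes with high ratios, Nusap1 and Mxd3 held no match of any kind and Nek2 no CHR, and the S phase genes Pcna, Tk1 and Rrm2 held no E2F letters.

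The 5 genes of the rule were unequal in the cells they chose. These values made the selection and are a description. Birc5, which encodes survivin of the chromosomal passenger complex (chr11:117849251-117855743), gave most UMIs, with 528 CPM [511 to 546] and a UMI in 99.0% of the cells in the non-responder library, and 541 CPM [525 to 557] and 98.6% in the responder library. Ccnb2, cyclin B2 (chr9:70407692-70421547), had 220.3 CPM [209 to 232] and a UMI in 80.1% of the cells in the non-responder library, and 195 CPM [185 to 205] and 75.3% in the responder library. Top2a, the topoisomerase that untangles DNA (chr11:98992943-99024189), had 212 CPM [202 to 224] and a UMI in 67.6% of the cells in the non-responder library, and 258 CPM [247 to 269] and 77.5% in the responder library. Birc5 alone thus supplied 45.8% and 45.7% of the 8053 and 9683 UMIs of the 5 genes. Mki67, which encodes the Ki-67 coat protein of mitotic chromosomes (chr7:135689784-135716361), had 121 CPM [113 to 129] and a UMI in 70.2% of the cells in the non-responder library, and 102 CPM [94.9 to 109] and 66.4% in the responder library. Cenpe, a kinetochore motor (chr3:135212537-135273611), was the lowest, with 70.7 CPM [64.6 to 77.2] and a UMI in 54.5% of the cells in the non-responder library, and 88.2 CPM [81.9 to 94.9] and 60.3% in the responder library. Positions are those of GENCODE M21 on GRCm38. The sum of the 5 genes had a median of 17 UMIs per cell and a maximum of 67 in the non-responder library, and 15 and 54 in the responder library. All 5 genes were detected in 135 of 413 and 172 of 587 cells, and a single one in 1 and 4 cells.

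At the threshold, 43 and 40 macrophages had 4 UMIs and stayed out, and 23 and 37 had 5 UMIs and were taken. Mitotic kinase genes (the list without genes of the rule) summed to 105 and 133 CPM in the cells with 4 UMIs and to 65.3 and 184 CPM in those with 5. In the 0-UMI macrophages they summed to 21.7 and 25.1 CPM, and over all 5-gene macrophages to 543 and 506 CPM. Cells on both sides of the threshold thus lay between the 2 sets that are compared.

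The 5-gene macrophages were 20.9% [19.1 to 22.7] of the C1q macrophages in the non-responder library and 16.0% [14.9 to 17.3] in the responder library. The share moved with depth from 5000 UMIs on. It was 10% (8 of 80) and 2.70% among macrophages under 5000 UMIs, 5.96% and 6.03% among macrophages of 5000 to 10000 UMIs, 14.0% and 17.7% at 10000 to 15000, 34.5% and 50.8% at 15000 to 20000, and 67.5% and 64.5% above 20000. After each cell was thinned to 5000 UMIs, with 80 and 259 shallower cells left out, 3 or more UMIs of the 5 genes were found in 17.8% [16.1 to 19.6] and 15.7% [14.5 to 17.0]. At equal depth the intervals of the libraries overlapped. Outside the C1q macrophages, 59 and 90 barcodes reached 5 UMIs, of which 46 and 27 had a lower C1q share and 13 and 63 carried Cd3 counts.

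The name G2/M was set beside lists of other genes. The cells were chosen for genes of mitosis, and the limit below comes from cells with 0 UMIs of them. A high level of other mitotic genes was therefore likely in advance and is a description. A cell was called high for a list when its summed CPM was above the 95th percentile of the 0-UMI macrophages of its library. For 77 genes of the cyclin, kinase, kinetochore, spindle and anaphase lists, 389 of 413 (94.2%) and 573 of 587 (97.6%) of the 5-gene macrophages were high. For the 41 genes of DNA replication, 140 (33.9%) and 264 (45.0%) were high as well, nearly all of them also high for the mitotic lists (139 and 264). High for the mitotic lists alone were 250 (60.5%) and 309 (52.6%), and 23 and 14 were high for neither. With every cell thinned to 5000 UMIs the shares were 88.9% and 94.8% for the mitotic lists and 34.3% and 42.2% for S phase. The rule therefore took in cells high for the S phase list beside cells high for the mitotic lists alone. Not high did not mean absent. The 5-gene macrophages not high for S phase had 1109 and 1044 CPM of that list, against 815 and 675 CPM in the 0-UMI macrophages. The cells are named by the rule rather than by a phase.

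**Figure D1:**
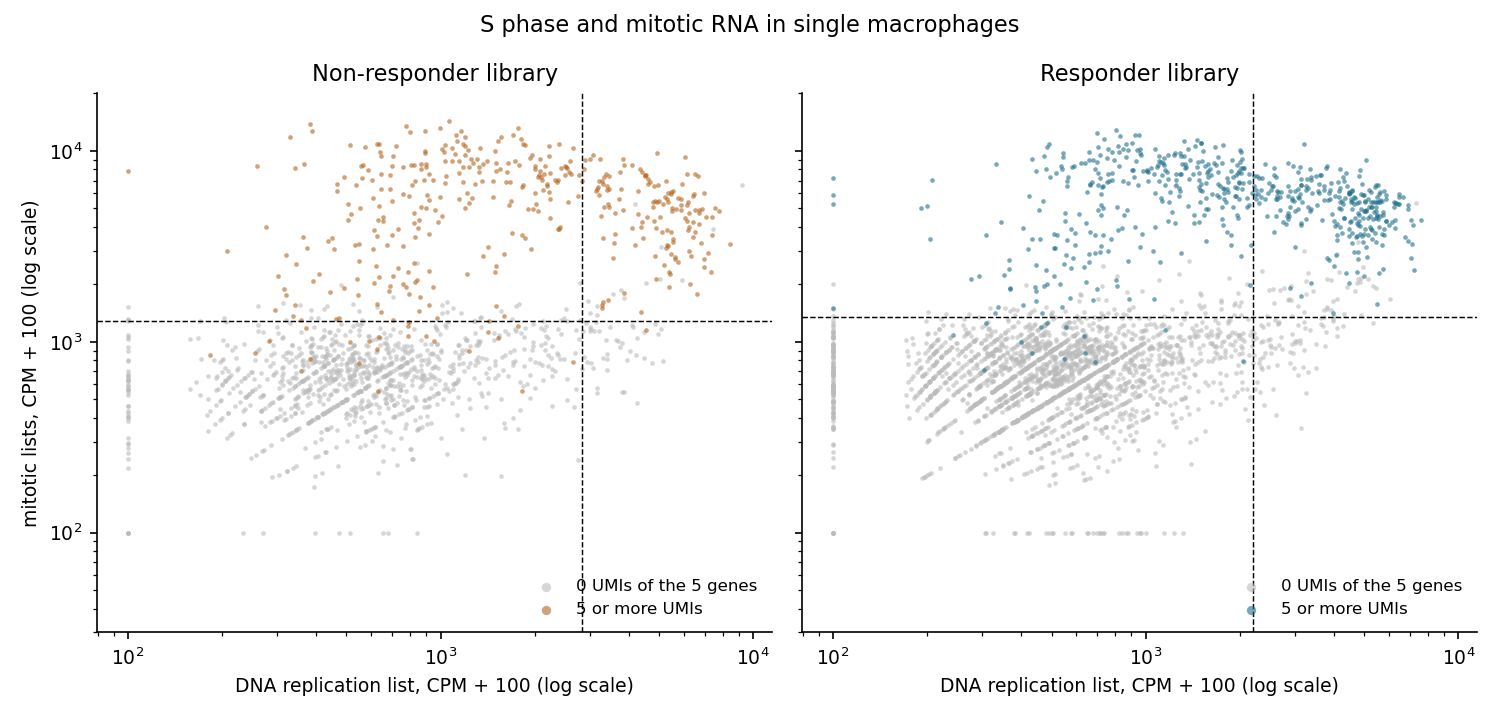
Each point is 1 macrophage, with the summed level of 41 DNA replication genes on the x axis and of 77 mitotic genes on the y axis (CPM + 100, log scales); grey points are 0-UMI macrophages, coloured points 5-gene macrophages, and dashed lines the 95th percentiles of the grey points. The coloured points lie above the horizontal line in 389 of 413 and 573 of 587 cells and spread over both sides of the vertical line.

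Along the UMIs of the 5 genes, mitotic and S phase genes did not follow 1 course. The mitotic kinases summed to 21.7, 51.9, 147, 407 and 791 CPM in non-responder macrophages with 0, 1 to 4, 5 to 9, 10 to 19 and 20 or more UMIs. In the responder library they summed to 25.1, 52.1, 235, 470.2 and 699.9 CPM. The DNA replication list instead went from 815 to 2788 and back to 2344 CPM in the non-responder library, and from 675 to 2970 (at 5 to 9 UMIs) and back to 1976 in the responder library. On the CPM scale, cells with 20 or more UMIs thus had a lower S phase level than those with 5 to 9 or 10 to 19. The level was higher than in those with 0 or 1 to 4. Cells with 20 or more were also deeper (median 19776 and 16447 UMIs, against 13993.5 and 11335 at 5 to 9). Per cell the order differed in the non-responder library, with 8028 UMIs of the list in 171 cells with 20 or more, 5990 in 140 with 10 to 19 and 3542 in 102 with 5 to 9. In the responder library the counts were 6124 in 185, 9372 in 248 and 5314 in 154 cells. Within the 5-gene macrophages, cells high for the S phase list had less of the cyclin list (936 against 1261 and 1020 against 1392 CPM) and of the anaphase list (940.2 against 1340 and 1139 against 1583). The mitotic kinases were alike in both (559 against 533 and 518 against 495 CPM).

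Gene by gene, the 5-gene macrophages were compared with the 0-UMI macrophages of the same library as log2 ratios of CPM, over genes with 50 or more counts in the 2 sets together and without the 5 genes. The cells had been selected on genes of the same readout, so these ratios describe the selection and were not tested. In the non-responder library 552 of 9173 genes (6.02%) were more than 2-fold higher and 120 (1.31%) more than 2-fold lower. In the responder library 623 of 9701 (6.42%) were higher and 147 (1.52%) lower. Of 9050 genes measured in both, 456 were higher in both libraries, which is 84.8% of those higher in the non-responder and 80% (456 of 570) of those higher in the responder library. Of the lower genes, 39 were shared, of 108 and 101. Among 174 measured genes of the cell cycle lists, 134 were higher in both libraries and 0 lower in either. The median over all genes was 0.11 and 0.08. When UMIs per cell were used in place of CPM, the median was 0.68 and 0.63 and the split became 2022 higher and 35 lower, and 1875 higher and 36 lower. List medians per cell given below stand beside this 0.68 and 0.63 rather than beside 0. With every cell thinned to 5000 UMIs and 3 UMIs as the limit, 360 genes were higher and 150 lower in the non-responder library and 502 and 167 in the responder library.

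**Figure D2:**
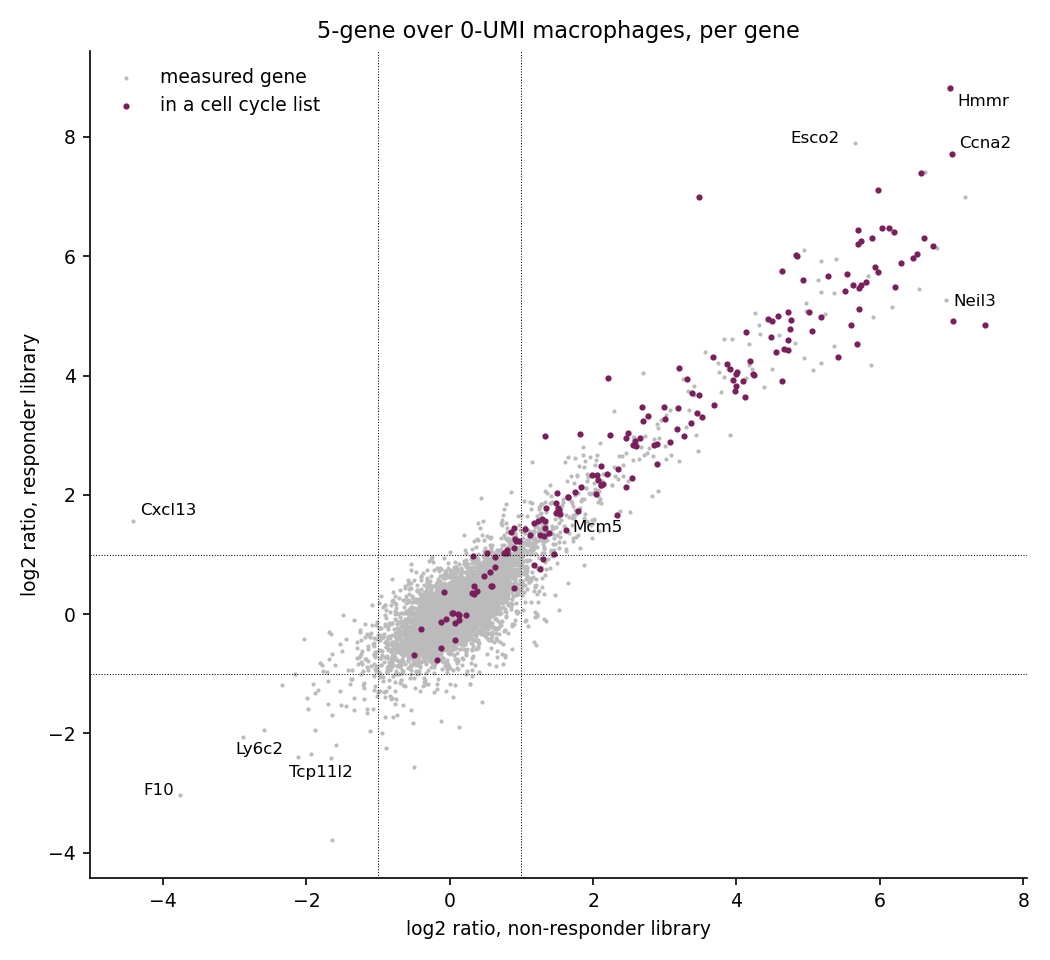
Each point is a gene measured in both libraries; the axes give the log2 ratio of its CPM in 5-gene over 0-UMI macrophages in the non-responder (x) and the responder library (y), genes of the cell cycle lists are purple and dotted lines mark 2-fold. Of the purple genes 134 of 174 lie above both upper lines and 0 below the lower ones, and Cxcl13 stands alone at the upper left.

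The cyclins that open mitosis were far higher in the 5-gene macrophages. Ccna2 (cyclin A2) stood at 62.7 against 0.487 CPM in the non-responder library and 66.1 against 0.315 CPM in the responder library. Its log2 ratios were 7.01 [5.87 to 8.46] and 7.71 [6.66 to 9.03]. Ccnb1 (cyclin B1) stood at 130.0 against 1.22 CPM in the non-responder library and 100.4 against 1.40 CPM in the responder library, with log2 ratios of 6.74 [6.01 to 7.58] and 6.17 [5.65 to 6.74]. Their kinase Cdk1 was also present in the comparison cells, at 195 against 12.3 CPM in the non-responder library and 186 against 13.2 CPM in the responder library (log2 3.99 and 3.82). All 9 measured genes of this list of 10 were more than 2-fold higher in each library, with medians of 3.99 and 4.12. The small CDK-binding proteins Cks1b and Cks2 gave the most UMIs of the list, Cks1b with 369.8 against 28.8 CPM in the non-responder library and 433 against 38.0 CPM in the responder library.

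The mitotic kinases were likewise higher, with all 11 measured genes of 12 past 2-fold in each library (medians 4.74 and 4.77). Plk1, the Polo-like kinase of mitotic entry, stood at 81.7 against 0.894 CPM in the non-responder library and 74.3 against 1.13 CPM in the responder library, with log2 ratios of 6.52 [5.67 to 7.53] and 6.04 [5.47 to 6.68]. Aurkb, the kinase partner of the Birc5 protein, stood at 109 against 4.87 CPM in the non-responder library and 114 against 4.595 CPM in the responder library (log2 4.49 and 4.64). Aurka, the kinase of the spindle poles, followed with 78.7 against 3.17 CPM in the non-responder library and 73.1 against 4.87 CPM in the responder library (log2 4.64 and 3.91). Pbk, a mitotic kinase that ranked among the first 15, stood at 95.1 against 1.79 CPM in the non-responder library and 72.7 against 0.946 CPM in the responder library (log2 5.73 and 6.26). Nek2, a kinase of centrosome separation, had 119 UMIs in the non-responder 5-gene macrophages and 0 in the comparison cells. Its ratio there is a lower bound against 3 counts, log2 6.13 or more, beside 6.47 in the responder library. Plk4, which starts the copying of centrioles, was the least distinct of the named kinases, at 25.9 against 4.71 CPM in the non-responder library and 23.9 against 5.45 CPM in the responder library (log2 2.46 and 2.14).

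Spindle and kinetochore genes were higher in every measured case. The 26 measured of 27 spindle and cytokinesis genes had the largest medians of any list, 5.56 and 5.48. Nusap1, which bundles spindle microtubules, stood at 103 against 1.06 CPM in the non-responder library and 89.4 against 1.13 CPM in the responder library (log2 6.61 [5.83 to 7.53] and 6.31 [5.74 to 6.95]). Hmmr, a spindle-associated protein, had log2 ratios of 6.98 [5.61 to 8.86] and 8.81 [6.95 to 11.87], the wide interval coming from few counts in the 0-UMI macrophages (0.325 and 0.0901 CPM). Kif20a, a kinesin of cytokinesis, had log2 ratios of 5.97 [5.11 to 6.98] and 5.73 [5.11 to 6.42]. Racgap1 of the cytokinetic ring stood at 137 against 5.20 CPM in the non-responder library and 122 against 5.05 CPM in the responder library. Of 21 kinetochore and centromere genes 19 were measured and all 19 were past 2-fold (medians 4.66 and 4.53). Cenpf stood at 95.6 against 1.22 CPM in the non-responder library and 85.8 against 1.44 CPM in the responder library (log2 6.29 and 5.89), and the centromeric histone Cenpa at 348 against 35.2 CPM in the non-responder library and 340.0 against 22.1 CPM in the responder library (log2 3.31 and 3.94).

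The genes of the anaphase system split. All 10 were measured, 6 and 7 were past 2-fold higher and 0 lower, with medians of 1.31 and 1.27. Ube2c, the ubiquitin-conjugating enzyme of the anaphase-promoting complex, stood at 371 against 9.58 CPM in the non-responder library and 393 against 7.70 CPM in the responder library (log2 5.28 [5.01 to 5.55] and 5.67 [5.45 to 5.90]), and its activator Cdc20 at 133 against 2.84 CPM in the non-responder library and 126 against 2.43 CPM in the responder library (log2 5.55 and 5.70). The complex subunits Anapc11 and Anapc5 were expressed in the 0-UMI macrophages too, Anapc11 at 246 against 132 CPM in the non-responder library and 314.7 against 146 CPM in the responder library (log2 0.89 and 1.104). Pttg1, securin, which the complex degrades, was level between the sets at 76.0 against 74.5 CPM in the non-responder library and 82.7 against 81.4 CPM in the responder library, with log2 ratios of 0.03 [-0.13 to 0.19] and 0.02 [-0.11 to 0.15].

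Of 13 genes of chromosome structure 11 were more than 2-fold higher in each library. H2afz, a histone variant, stood at 2896 against 672 CPM in the non-responder library and 3013 against 672 CPM in the responder library (log2 2.11 and 2.16), and Hmgb2, a DNA-bending protein, at 1190 against 197 CPM in the non-responder library and 1265 against 179 CPM in the responder library (log2 2.59 and 2.82). The condensin subunits Smc4 and Smc2 had log2 ratios of 2.90 and 2.86 and of 3.44 and 3.37. The list medians were 2.59 and 2.84, while the lamin gene Lmnb1 reached only 0.39 and 0.38 and the condensin gene Ncapg2 0.23 and -0.01. RNA of replication-dependent histone genes largely lacks a poly(A) tail and is poorly caught by this assay. The replication histone list was taken by gene symbol and may hold other histone genes. Of its 69 genes 17 and 11 were measured, 12 and 8 of them past 2-fold higher.

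S phase genes were higher by less. Of 41 replication genes, 32 and 38 were past 2-fold and 0 lower, with medians of 1.62 and 1.78. Rrm2 and Tk1, which supply nucleotides, stood out in the list: Rrm2 at 148 against 6.17 CPM in the non-responder library and 159.6 against 5.001 CPM in the responder library (log2 4.58 [4.24 to 4.94] and 4.996 [4.72 to 5.29]) and Tk1 at 236 against 21.2 CPM in the non-responder library and 262 against 20.6 CPM in the responder library (log2 3.48 and 3.67). Pcna, the clamp of DNA polymerase, was common in the 0-UMI macrophages and stood at 159 against 77.2 CPM in the non-responder library and 133 against 49.4 CPM in the responder library (log2 1.04 and 1.43). Mcm5, a subunit of the replicative helicase whose promoter is printed here, stood at 83.3 against 29.2 CPM in the non-responder library and 85.4 against 24.9 CPM in the responder library (log2 1.51 and 1.78). The DNA repair list had 7 of 9 and 11 of 13 measured genes past 2-fold.

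Regulators of the cycle were less uniform. Foxm1, the transcription factor of mitotic genes, stood at 21.0 against 0.406 CPM in the non-responder library and 23.3 against 0.270 CPM in the responder library (log2 5.70 [4.44 to 7.34] and 6.43 [5.28 to 7.90]). E2f8 had log2 ratios of 3.08 and 2.88 and E2f2 of 1.29 and 1.59, whereas E2f1 was at -0.12 [-0.45 to 0.20] and -0.56 [-0.85 to -0.28]. Of the 20 listed brakes and G1 regulators, 3 of 18 and 3 of 17 measured genes were more than 2-fold higher and 0 lower (medians 0.32 and 0.36). Cdkn2d, the CDK4 inhibitor p19-INK4d, was one of them at 145 against 30.9 CPM in the non-responder library and 147 against 18.2 CPM in the responder library (log2 2.23 [2.06 to 2.40] and 3.01 [2.84 to 3.17]). The inhibitor Cdkn1a (p21) was level at 266 against 259 CPM in the non-responder library and 275 against 270.4 CPM in the responder library (log2 0.04 and 0.03), as was cyclin D1, Ccnd1, at 127 against 138 CPM in the non-responder library and 129 against 141 CPM in the responder library (log2 -0.13 and -0.13). The anti-proliferative gene Btg2 was lower, with log2 ratios of -0.50 [-0.58 to -0.42] and -0.69 [-0.76 to -0.62].

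**Figure D3:**
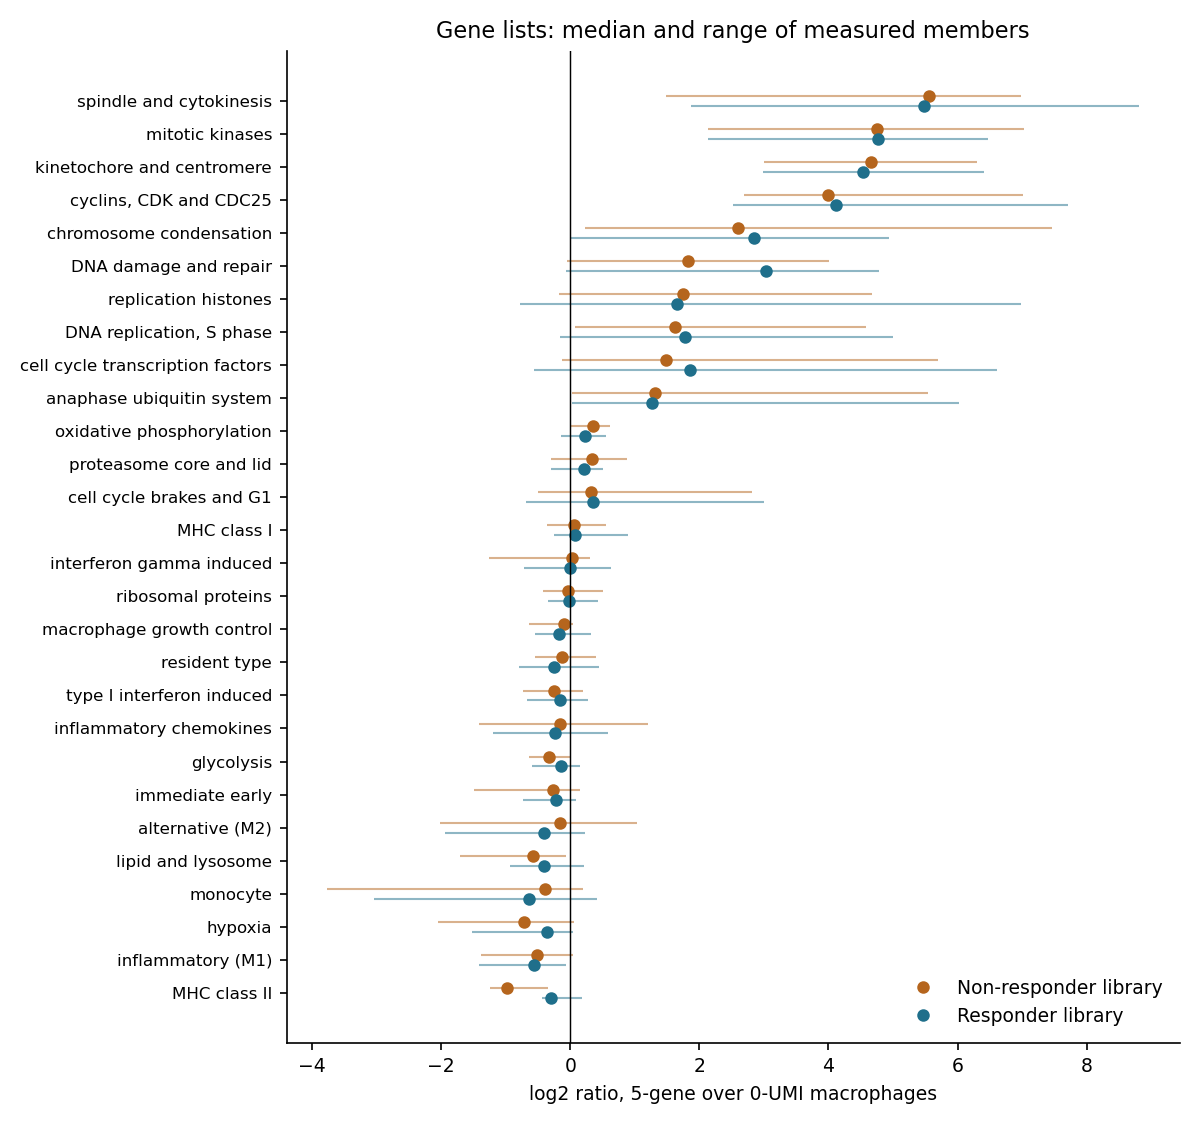
For each gene list the point is the median and the line the range, over measured genes, of the log2 ratio of CPM in 5-gene over 0-UMI macrophages, for the non-responder (brown) and responder (blue) libraries. Spindle genes have medians of 5.56 and 5.48, and MHC class II genes -0.98 and -0.31.

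Of the 15 genes that ranked first by the lower counting bound over both libraries, 4 were in none of the cell cycle lists, and the first 12 such genes were also taken. Mxd3, a transcriptional repressor of the Max network, stood at 35.6 against 0.244 CPM in the non-responder library and 45.8 against 0.360 CPM in the responder library (log2 7.19 [5.63 to 9.48] and 6.99 [6.00 to 8.21]). Fam64a, also called Pimreg, stood at 72.3 against 0.650 CPM in the non-responder library and 66.5 against 0.946 CPM in the responder library (log2 6.80 and 6.13). Most UMIs among them came from 2810417H13Rik, which encodes the PCNA-binding protein PAF15, with 487 against 13.4 CPM in the non-responder library and 535 against 12.7 CPM in the responder library (log2 5.18 [4.96 to 5.42] and 5.40 [5.22 to 5.58]). Cdca3 stood at 282 against 6.74 CPM in the non-responder library and 256 against 4.14 CPM in the responder library, and the phosphatase gene Cdkn3 at 130.3 against 3.17 CPM in the non-responder library and 82.5 against 1.98 CPM in the responder library (log2 5.36 and 5.38). The DNA glycosylase Neil3 had log2 ratios of 6.92 and 5.27 and Esco2, which acetylates cohesin, of 5.66 and 7.90. Spag5 and Ska3 of the spindle and kinetochore had 6.55 and 5.45 and 5.83 and 5.67. Shcbp1, Mns1 and the long non-coding RNA Lockd, a neighbour of Cdkn1b, complete the 12, Lockd at 90.2 against 3.74 CPM in the non-responder library and 91.6 against 3.56 CPM in the responder library (log2 4.59 and 4.69).

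None of the macrophage marker or growth control genes was past 2-fold, yet most lay below 0. The 12 macrophage markers, C1q genes of the rule among them, had 11 and 12 genes below 0 (medians -0.22 and -0.15) and summed to 44434 against 54126 CPM in the non-responder library and 43254 against 52911 CPM in the responder library. Csf1r stood at 593 against 618 CPM in the non-responder library and 378 against 419 CPM in the responder library (log2 -0.06 and -0.15). Of the 13 measured growth control genes 0 were past 2-fold in either direction, with medians of -0.09 and -0.17 on the CPM scale and above 0 per cell. The chemokine receptor Cx3cr1 was higher, at 449 against 340.2 CPM in the non-responder library and 323 against 238 CPM in the responder library.

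No gene of oxidative phosphorylation or the proteasome was past 2-fold in either library, but most were above 0, as were 62.3% and 59.3% of all measured genes. All 20 genes of oxidative phosphorylation were above 0 in the non-responder library and 19 in the responder library, with medians of 0.36 and 0.22 beside 0.11 and 0.08 over all genes. Atp5b of the ATP synthase stood at 869.8 against 641 CPM in the non-responder library and 716 against 551 CPM in the responder library (log2 0.44 and 0.38). Proteasome genes had medians of 0.33 and 0.20, with 37 of 38 and 33 of 37 above 0. Genes induced by interferon gamma had medians near 0, 0.02 and -0.01, signs that turn under several alternatives, and the ribosomal protein genes were at -0.04 and -0.02 on the CPM scale and above 0 per cell.

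Further macrophage lists lay slightly below 0 on the CPM scale, and the medians of all 6 named here were above 0 per cell in both libraries. Per cell they lay from 0.13 to 0.45, below the 0.68 and 0.63 over all genes. On the CPM scale the medians were -0.26 and -0.17 for genes induced by type I interferon, -0.16 and -0.41 for alternative (M2) genes and -0.12 and -0.25 for resident-type genes. They were -0.17 and -0.23 for chemokines, -0.33 and -0.14 for glycolysis and -0.27 and -0.22 for immediate early genes. Past 2-fold lower were 3 and 1 of the 10 and 11 measured M2 genes, 2 and 1 of the 14 and 13 chemokines, 2 and 0 of the 17 immediate early genes, and 0 in the other lists. Past 2-fold higher in the non-responder library were the M2 gene Ccl24 and the chemokine Cxcl1, with log2 ratios of 1.04 and 1.21. In the responder library Cxcl1 was at -0.52, and Ccl24 had too few counts.

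MHC class II genes, which present antigen to CD4 T cells, were lower on the CPM scale. All 10 were below 0 in the non-responder library (median -0.98, 4 past 2-fold) and 9 of 10 in the responder library (median -0.31, 0 past 2-fold); per cell the responder median was 0.24. H2-Aa stood at 1306 against 2617 CPM in the non-responder library and 8533 against 10901 CPM in the responder library (log2 -1.002 [-1.04 to -0.97] and -0.35 [-0.37 to -0.34]), and the invariant chain Cd74 at 4510 against 8818 CPM in the non-responder library and 25689 against 34868 CPM in the responder library (log2 -0.97 and -0.44). Whether the 2 libraries differ in this respect could not be tested. Summed over the list, the level was 23604 CPM at 0 UMIs of the 5 genes, 18937 at 1 to 4 and 12134, 14650 and 13797 in the higher classes of the non-responder library. In the responder library it was 80465, 74205, 59197, 61806 and 60668 CPM. MHC class I genes had medians of 0.06 and 0.07 and 0 of 14 genes past 2-fold. Their summed level was lower all the same, at 14509 against 17048 CPM in the non-responder library. In the responder library it was 21604.5 against 23655 CPM.

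Of the lipid and lysosome genes 2 of 19 (Gpnmb and Fabp4) and 0 of 17 measured were past 2-fold lower, with medians of -0.58 and -0.41. All 19 and 14 of 17 were below 0, beside 37.7% and 40.7% of all measured genes, although per cell the responder median was 0.14. Apoe, which carries lipids, stood at 8579 against 13614 CPM in the non-responder library and 8831 against 13802 CPM in the responder library (log2 -0.67 [-0.68 to -0.65] and -0.64 [-0.66 to -0.63]), Lgals3 at 2082 against 3560 CPM in the non-responder library and 1293 against 2049 CPM in the responder library (log2 -0.77 and -0.66) and the tetraspanin Cd63 at 808 against 1281 CPM in the non-responder library and 311 against 594 CPM in the responder library (log2 -0.66 and -0.93). The list sum went from 30282 CPM at 0 UMIs to 20091 at 20 or more in the non-responder library and from 22772 to 14443 in the responder library.

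**Figure D4:**
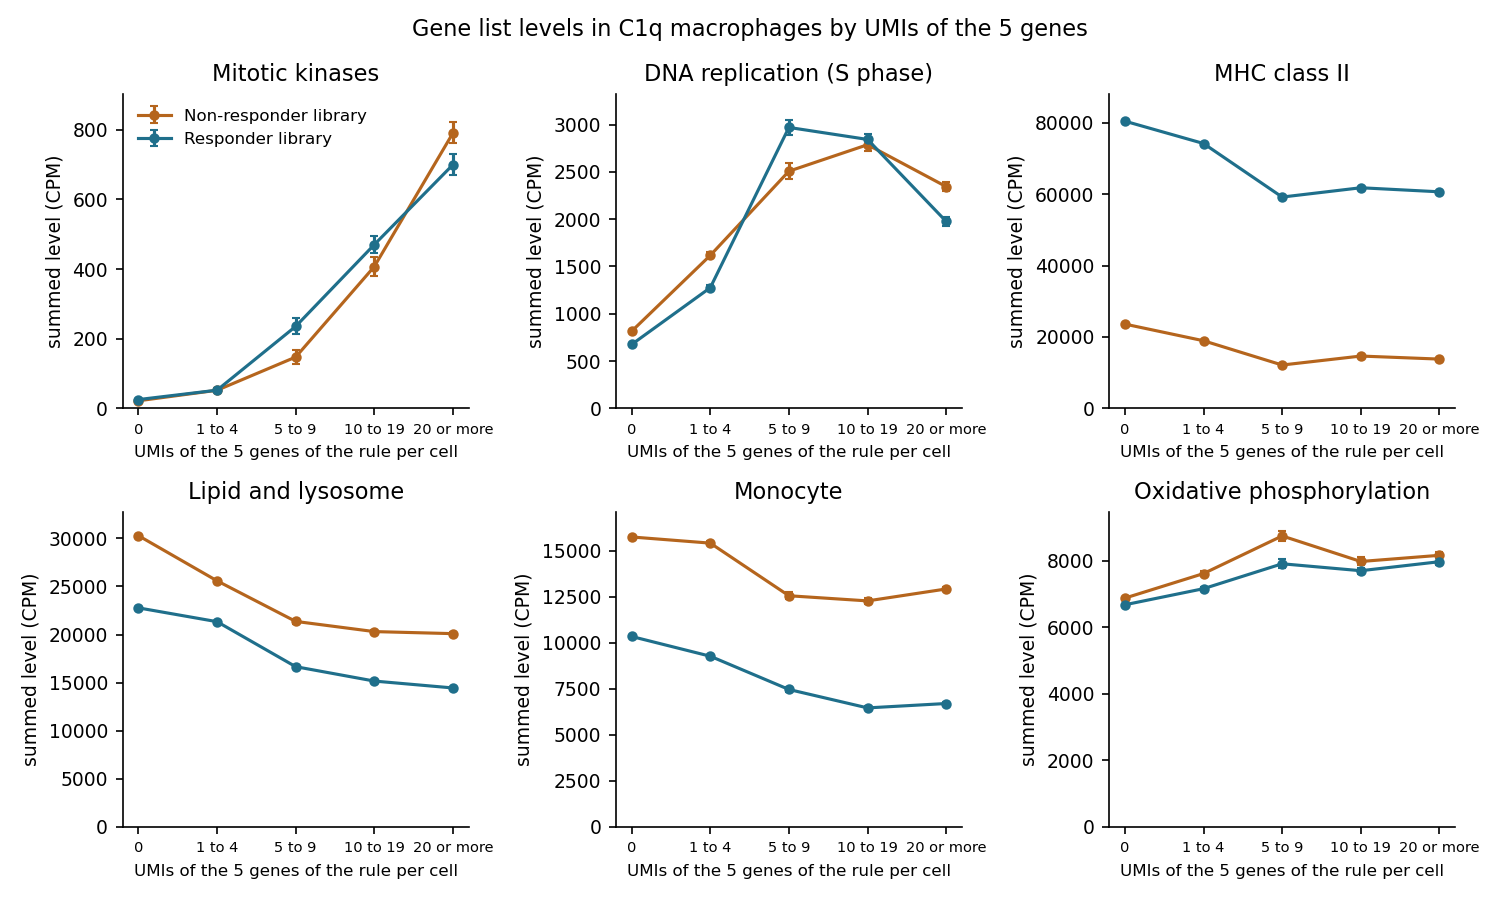
Summed CPM of 6 gene lists in C1q macrophages with 0, 1 to 4, 5 to 9, 10 to 19 and 20 or more UMIs of the 5 genes, for the non-responder (brown) and responder (blue) libraries, with exact Poisson 95% intervals that are mostly smaller than the points. Mitotic kinases climb to 791 and 699.9 CPM, while lipid and lysosome genes go down to 20091 and 14443 CPM.

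Monocyte genes were lower by amounts that differed from gene to gene. Of 13 measured genes 5 were past 2-fold lower in each library and 0 higher, with medians of -0.40 and -0.64, and per cell the non-responder median was 0.17. Ly6c2, the surface marker of classical monocytes and the first of all lower genes by rank, stood at 6.73 against 40.6 CPM in the non-responder library and 19.9 against 76.3 CPM in the responder library (log2 -2.59 [-3.06 to -2.16] and -1.94 [-2.18 to -1.71]). In the non-responder library 1 cell held 46.8% of the 47 Ly6c2 UMIs of the 5-gene macrophages. Plac8, another monocyte gene, stood at 17.5 against 44.0 CPM in the non-responder library and 43.3 against 115 CPM in the responder library (log2 -1.33 and -1.41), and Chil3 at 2.86 against 10.6 CPM in the non-responder library and 1.47 against 5.63 CPM in the responder library (log2 -1.88 and -1.94). Lyz2, lysozyme, was lower by less, with log2 ratios of -0.31 and -0.64, and the matrix gene Fn1 was higher, 0.20 [0.12 to 0.28] and 0.42 [0.21 to 0.62].

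Hypoxia genes were below 0 in 15 of 16 and 13 of 15 measured cases, 6 and 3 past 2-fold lower, with medians of -0.72 and -0.36; per cell the responder median was 0.19. Hilpda, which blocks lipid breakdown, stood at 65.3 against 178 CPM in the non-responder library and 27.5 against 79.5 CPM in the responder library (log2 -1.44 [-1.59 to -1.30] and -1.53 [-1.74 to -1.33]), and Hmox1, heme oxygenase, at 239.9 against 486 CPM in the non-responder library and 67.3 against 174 CPM in the responder library (log2 -1.02 and -1.37). The inflammatory (M1) list had medians of -0.52 and -0.56 and 2 of 10 genes past 2-fold lower in each library, while per cell the non-responder median was 0.05. Nos2, which makes nitric oxide, stood at 3.72 against 8.53 CPM in the non-responder library and 6.35 against 17.0 CPM in the responder library (log2 -1.20 [-1.88 to -0.57] and -1.42 [-1.87 to -0.997]), and Il1b at 135 against 262 CPM in the non-responder library and 341 against 569 CPM in the responder library (log2 -0.96 and -0.74). The chemokine Ccl5 stood at 248 against 571 CPM in the non-responder library and 903 against 2065 CPM in the responder library (log2 -1.20 [-1.28 to -1.13] and -1.19 [-1.23 to -1.16]), with 1 cell holding 35.1% of the non-responder UMIs.

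The other lower genes of the first 15 had fewer counts. Thbs1, thrombospondin, stood at 7.16 against 23.3 CPM in the non-responder library and 9.90 against 28.2 CPM in the responder library (log2 -1.70 and -1.51). Il1r2, the decoy receptor of interleukin 1, had log2 ratios of -1.64 and -1.69, the glycolytic gene Aldoc -1.52 and -1.52 and the peptidase Anpep -1.53 and -1.29. F10, coagulation factor X, had 2 and 4 UMIs in the 5-gene macrophages, with ratios of -3.77 [-6.85 to -1.84] and -3.04 [-4.94 to -1.63]. Kdm5b, a histone H3K4 demethylase, had 4 and 8 UMIs (-2.88 [-4.81 to -1.44] and -2.05 [-3.31 to -1.01]). Tcp11l2, Ahnak2 and Mgarp were lower as well, with -1.94 and -2.34, -1.58 and -2.20 and -1.84 and -1.28.

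A further count asked in which macrophages the 5 genes were found, for 14 genes of macrophage states that were picked after values of these data were known. All cells were thinned to 5000 UMIs, so that depth was equal, and 3 or more UMIs of the 5 genes counted as positive. Free RNA can give a cell a UMI of a gene it does not express. The share of cells with a UMI was therefore set beside that in barcodes with Cd3 counts and a low C1q share, of which 44 and 31 reached 5000 UMIs (median depth before thinning 7444 and 8643 UMIs, and 12563 and 10515 in the macrophages). Cells are not replicates, and the shares describe 2 libraries.

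The fractalkine receptor gene Cx3cr1 had a UMI in 72.3% of the macrophages against 25% [13.2 to 40.3] of the Cd3 barcodes in the non-responder library, and in 63.2% of the macrophages against 19.4% [7.45 to 37.5] in the responder library. Among macrophages with a Cx3cr1 UMI 19.8% [17.7 to 22.0] of 1373 were positive for the 5 genes, against 12.5% [9.84 to 15.7] of 526 without one, and in the responder library 18.4% [16.7 to 20.1] of 2152 against 11.1% [9.42 to 13.0] of 1251. The intervals were apart in both libraries. Arg1, arginase, had a UMI in 41.9% of the macrophages against 11.4% [3.79 to 24.6] and in 38.1% of the macrophages against 19.4% [7.45 to 37.5]. Its carriers were positive in 14.3% [12.0 to 17.0] of 795 against 20.3% [18.0 to 22.8] of 1104, and in 14.2% [12.4 to 16.2] of 1295 against 16.6% [15.0 to 18.3] of 2108 in the responder library, where the intervals overlapped.

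Hmox1 had a UMI in 58.5% of the macrophages against 20.5% [9.80 to 35.3] in the non-responder library. In the responder library, with 33.0% of the macrophages against 25.8% [11.9 to 44.6], its share of cells was within the interval of the background. Cells with a Hmox1 UMI were positive in 13.9% [11.9 to 16.0] of 1110 against 23.3% [20.4 to 26.4] of 789, and in 12.7% [10.8 to 14.8] of 1124 against 17.2% [15.6 to 18.8] of 2279. Ly6c2 is expressed by T cells too, so the Cd3 barcodes give no background for it. Cells with a Ly6c2 UMI were positive in 9.09% [3.41 to 18.7] of 66 against 18.1% [16.4 to 19.95] of 1833, and in 7.71% [5.15 to 11.0] of 350 against 16.6% [15.3 to 18.0] of 3053, with intervals apart in the responder library. Nos2, with a UMI in 3.00% of the macrophages against 2.27% [0.0575 to 12.0] and in 5.35% of the macrophages against 9.68% [2.04 to 25.8], did not exceed the background, and its carriers are not described further.

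The other genes had overlapping intervals in both libraries. For Spp1 the shares were 18.3% [16.1 to 20.6] of 1215 against 17.0% [14.2 to 19.99] of 684 and 19.2% [15.6 to 23.1] of 454 against 15.2% [13.9 to 16.5] of 2949. For Chil3, with few carriers, they were 7.89% [1.66 to 21.4] of 38 against 18.0% [16.3 to 19.8] of 1861 and 7.69% [1.62 to 20.9] of 39 against 15.8% [14.6 to 17.1] of 3364. H2-Ab1 could be compared in the non-responder library, with 16.7% [14.8 to 18.8] of 1446 against 21.2% [17.5 to 25.2] of 453, since 2 responder cells lacked it. The monocyte receptor Ccr2 had 18.996% [15.5 to 22.9] of 458 against 17.4% [15.5 to 19.5] of 1441 and 11.2% [8.15 to 15.0] of 356 against 16.2% [14.9 to 17.6] of 3047. Against the intervals of the Cd3 barcodes, the shares of macrophages with a UMI of Chil3, Spp1, Ccr2 and Mgl2 were not higher in either library. The same held for Cxcl9 and Ccl8 in the non-responder library and for Mrc1 in the responder library. For Ccr2 the responder share was 10.5% of the macrophages and 29.0% [14.2 to 48.0] of the Cd3 barcodes. Whether the Cd3 barcodes express Ccr2 themselves was not tested, so they may give no background for it. Carriers of Cxcl9, Ccl8, Fcrls, Mrc1 and Mgl2 had shares from 11.8% to 18.8%.

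**Figure D5:**
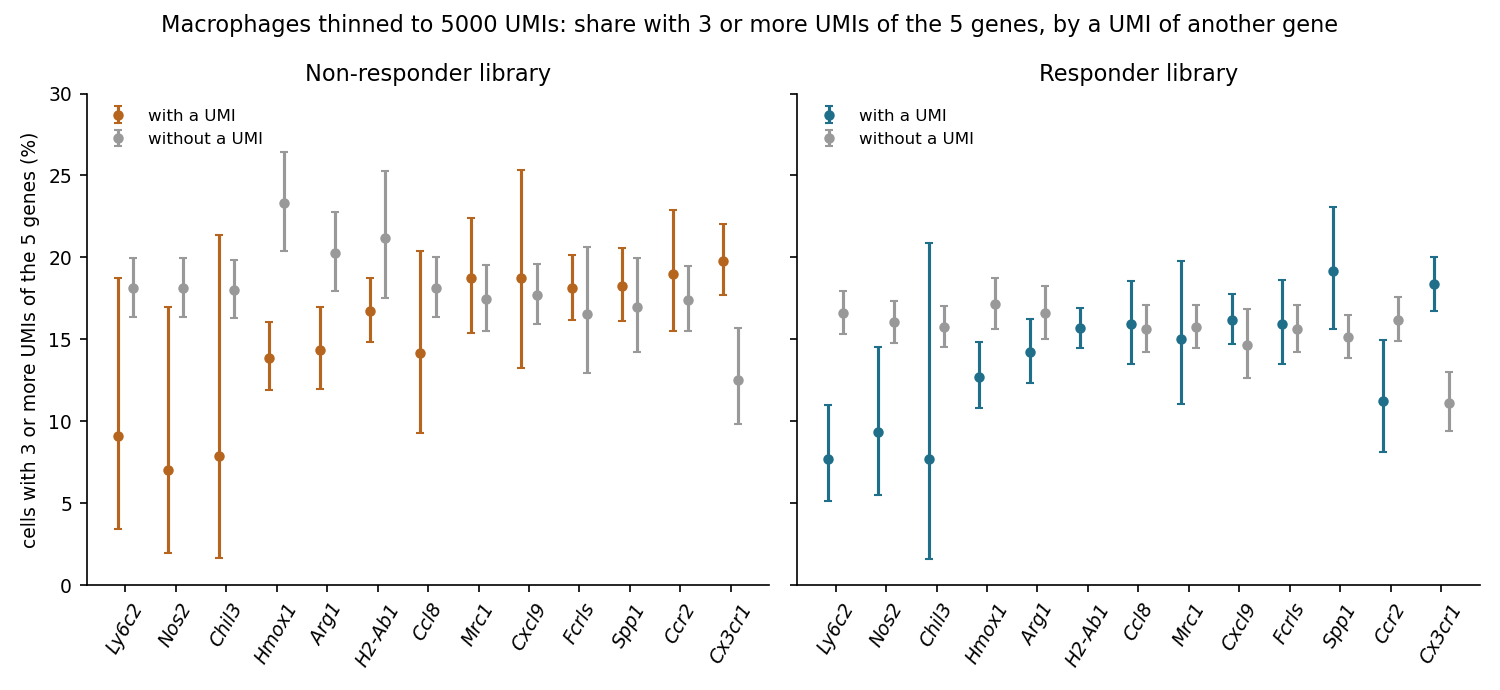
Share (%) of C1q macrophages with 3 or more UMIs of the 5 genes after each cell was thinned to 5000 UMIs, among cells with (coloured) and without (grey) a UMI of the gene on the x axis, with exact 95% intervals; sets under 20 cells are not drawn. In both libraries the coloured point lies below the grey one for Ly6c2, Nos2, Chil3, Hmox1 and Arg1 and above it for Cx3cr1, Spp1, Cxcl9 and Fcrls. Intervals are apart in both for Cx3cr1 and Hmox1 alone. Of these genes, Nos2, Chil3 and Spp1 in both libraries had shares of cells with a UMI not above the Cd3 barcode intervals. The same held for Cxcl9 in the non-responder and Hmox1 in the responder library, and Ly6c2 had no such background.

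Between the libraries, the 5-gene macrophages differed in their macrophage genes and little in their cell cycle genes. Both sets were chosen by the same limit on genes of mitosis. Like levels of cell cycle genes were therefore likely in advance and describe the selection. Of 8828 measured genes, 271 (3.07%) were more than 2-fold higher in the responder library and 305 (3.45%) more than 2-fold lower. The medians of the spindle, kinetochore, kinase, cyclin and S phase lists lay between -0.14 and 0.04, and the signs of all of these but the kinase median turn under some alternatives. With UMIs per cell 166 genes were higher and 604 lower, and with cells thinned to 5000 UMIs 205 and 150. The replication histone list was the exception among cell cycle lists, with 10 of 19 genes past 2-fold lower and a median of -1.08, beside -0.80 in the 0-UMI macrophages. It was taken by gene symbol rather than by role, and a difference in DNA replication was not tested. Hist1h2bc stood at 183 CPM in the non-responder and 54.5 CPM in the responder 5-gene macrophages (log2 -1.75 [-1.91 to -1.59]).

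Of the 10 MHC class II genes, 9 were more than 2-fold higher in the responder library, with a median of 2.26 in the 5-gene and 1.78 in the 0-UMI macrophages. H2-Eb1 stood at 934 and 7138 CPM (log2 2.93 [2.90 to 2.97]). Genes induced by interferon gamma were past 2-fold higher in 16 of 19 cases (median 1.80, and 1.76 in the 0-UMI macrophages). The chemokine Cxcl9, which attracts T cells, stood at 61.0 and 726 CPM (log2 3.57 [3.43 to 3.72]), and the guanylate-binding protein gene Gbp2b, with 6 UMIs in the non-responder cells, at 0.859 and 85.7 CPM (log2 6.64 [5.51 to 8.09]). Ifitm1, a membrane protein induced by interferon, was at 3.45 [3.27 to 3.65], Itgb7 of 3.69 [3.11 to 4.32], and the uridine phosphorylase gene Upp1 of 4.48 [3.53 to 5.62]. The dendritic cell receptor Xcr1 stood at 0.716 and 18.2 CPM, beside the 27.9 and 71.6 CPM of all dendritic cell markers, of which 4 of 9 were at 0 in each library. Serpina3f, Serpina3g, Fam26f and 2310031A07Rik had log2 ratios from 3.16 to 4.16. The second of the 12 by rank was Cxcl13, whose 129 responder UMIs all came from 1 cell.

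In the other direction, Spp1, osteopontin, stood at 1023 CPM in the non-responder and 65.5 CPM in the responder 5-gene macrophages (log2 -3.97 [-4.09 to -3.84]), and the myelin protein gene Pmp22 at 75.01 and 1.95 CPM (log2 -5.26 [-6.08 to -4.55]). The calgranulin genes S100a8 and S100a9, which neutrophils carry in plenty, had 130 and 94 UMIs in the non-responder cells and 0 in the responder cells, which is at least 50.8-fold and at least 36.7-fold lower against a floor of 3 counts over the set. A single cell held 49.2% of the S100a8 UMIs and 37.2% of those of S100a9. The other 7 neutrophil markers summed to 12.5 CPM [9.98 to 15.4] and 22.2 CPM [19.1 to 25.7], so their sum was not lower in the responder cells. Of the 9 markers, 3 had enough counts for a ratio: S100a8, S100a9 and a gene at log2 1.14. In the non-responder cells 1 of 9 was at 0, and in the responder cells 4 of 9, S100a8 and S100a9 included. Camp was at 0 in both, and Ly6g, which defines neutrophils, had 1 and 2 UMIs. Slco2b1, Npl, Mid1, Cbr2, Erdr1, Rgs18, Alox5 and Fcna, with 60 to 196 UMIs in the non-responder and 1 to 9 in the responder cells, complete the first 12. Of the 24 genes ranked first in both directions, 23 were past 2-fold in the same direction in the 0-UMI macrophages, and the other was Cxcl13. Over 8689 genes measured in both sets, the log2 ratio of the libraries differed by more than 1 between the 5-gene and the 0-UMI macrophages for 93 genes (1.07%), and 0 genes were past 2-fold in opposite directions.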

How the data were processed

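RNA of single CD45+ tumour cells was captured by droplets with 10x 3' v3 chemistry, per the labels' protocols. The authors deposited 1 filtered matrix of whole-number UMI counts per gene and barcode for each library, while Cell Ranger 1.1.0 and the builds mm10 and GRCm38 are named, per the submitters' processing notes. That version is older than the v3 chemistry, so the label or the note may be misstated. The annotation used and the rule that called cells are not given in the sources used here. 3' counts carry no gene length, so ratios are within a gene.

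The members and the 38 gene lists were chosen with earlier results of these data known. Counts were summed over the cells of a set and scaled to CPM with exact Poisson intervals, ratios have conditional exact binomial intervals and shares Clopper-Pearson intervals (95%). A count of 0 was set to 3 counts, and the ratio is then a bound. A list's genes count as measured at 50 counts. Of symbols on several rows, the row with most counts kept the name, and 9 listed genes had no entry. The script that computes ratios and intervals was tested on simulated counts. Genes were named by rank of the counting bound nearest 0, the smaller over both libraries: 15 higher, 12 higher in no cell cycle list, 15 lower, 12 in each direction between libraries, and up to 4 of the most counted genes of a list; other genes of a list named in the text were chosen after their values were seen, and some listed genes are not reported here. Alternatives were other UMI limits, C1q and gene limits, thinning, depth, scaling and count limits. Python 3.11.15, numpy 2.4.6, scipy 1.17.1, pandas 2.3.3 and matplotlib 3.10.9 were used. Positions are from GENCODE M21 (27645 of 27998 identifiers found).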

Additional observations from a re-analysis of the deposited data

Results flagged for a closer look

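Cxcl13, a chemokine gene for B cells, was the only gene of the 9050 measured in both libraries that was more than 2-fold lower in the 5-gene macrophages of one library and more than 2-fold higher in those of the other. The log2 ratio was -4.42 (an upper bound, from 0 UMIs against 113) in the non-responder library and 1.56 [1.19 to 1.93] in the responder library, and the difference was not tested. All 129 UMIs of the responder 5-gene macrophages lay in 1 cell of 587. In the 0-UMI macrophages 1 cell held 99.1% of the 113 non-responder UMIs, and 1 cell held 71.4% of the 119 responder UMIs.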

How the results depend on the processing

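No paired analysis was possible because each group has 1 library. The share of 5-gene macrophages (20.9% and 16.0%) became 15.7% and 11.8% at 10 or more UMIs, 25.9% and 18.7% at 3 or more, 18.2% and 15.2% at 5 per 10000 UMIs, 18.4% and 13.8% without the deepest 5% of macrophages, and 17.8% and 15.7% after thinning. Leaving out members high for the S phase list, added after seeing the data, gave 13.8% and 8.82%, with a limit that differed between the libraries.

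With a limit of 20 counts, 223 and 299 genes were more than 2-fold lower in 5-gene macrophages of the non-responder and responder libraries, and 512 were lower in the responder library between libraries. At 200 counts, 294 were higher and 51 lower (non-responder), 368 higher and 39 lower (responder), and 139 higher and 126 lower between libraries. Thinning gave 360 higher in the non-responder library and 150 lower between libraries. UMIs per cell, added after seeing the data, gave 2022 higher and 35 lower, 1875 higher and 36 lower, and 166 higher and 604 lower. Under this scaling the non-responder median of the inflammatory list turned from -0.52 to 0.047, beside 0.68 over all genes. All 100 gene ratios that were named by rank kept their sign under each of the 14 alternatives in which they had a value. They had been ranked by bounds far from 0 in the same libraries, so a kept sign was likely in advance. Of 84 list medians, 36 changed sign under at least 1 of the alternatives, and the largest of these was the inflammatory median. Without members high for the S phase list 428 genes were higher and 211 lower in the responder library (67.0% of the called genes higher, against 80.9%). Depth limits low genes: ratios over few counts in the 0-UMI macrophages have wide intervals.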
